A study of Homo sapiens with 4 samples.

Results

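The genes described here are 10 of the Notch pathway, namely the receptors *NOTCH1*, *NOTCH2*, *NOTCH3*, and *NOTCH4*, the ligands *JAG1*, *JAG2*, *DLL1*, and *DLL3*, and the targets *HES1* and *HEY1*. They were taken as a family because *JAG1* was among the genes with the strongest rise after chemotherapy in these same libraries. The family was thus selected on the treated-to-untreated change of *JAG1*, which is given as a description with no test, and the other 9 genes were listed with it as its pathway partners. The count table holds 18449 gene symbols, 18066 of which had a count above 0 and were tested, and all 10 Notch genes were among those tested.

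BT-16 and CHLA-266 are established cell lines of atypical teratoid/rhabdoid tumor (AT/RT), a brain tumor of early childhood, and are assigned to its MYC subgroup. Untreated cells of each line were compared with cells that had received 1 µM doxorubicin, 5 µM etoposide, and 1 µM vincristine, 1 drug on each of 3 consecutive days, and had then regrown for several weeks. Bulk RNA was sequenced from 1 library per line and condition, 4 libraries in all, with the 2 cell lines as the replicates of each condition. AT/RT is defined by loss of SMARCB1 or, rarely, SMARCA4, subunits of a chromatin remodeling complex. Each group is a pair of single lines in culture, and the treated libraries hold the cells that survived the drugs and grew back.

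Notch signaling passes between neighboring cells. A ligand of the Jagged or Delta-like family on one cell binds a Notch receptor on the next, the receptor is cleaved by an ADAM protease and then by γ-secretase, and its freed intracellular domain joins RBPJ and a Mastermind protein in the nucleus to activate targets such as the *HES* and *HEY* repressor genes. The pathway is known for holding neural progenitors in an undifferentiated state, and DLL3 differs from the other ligands in that it does not activate receptors on neighboring cells.

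RBPJ binds DNA at the core TGGGAA, often within GTGGGAA. Promoters (the 250 bases before the annotated start, from RefSeq on GRCh38.p14) are shown for the target *HES1*, for the target *HES4*, and for *JAG1* as the gene that chose the family, so that a reader can see where these letters stand. Capitals mark GTGGGAA or TGGGAA on either strand, and each GTGGGAA holds a TGGGAA within it.
HES1, chr3:194135898-194136147, plus strand: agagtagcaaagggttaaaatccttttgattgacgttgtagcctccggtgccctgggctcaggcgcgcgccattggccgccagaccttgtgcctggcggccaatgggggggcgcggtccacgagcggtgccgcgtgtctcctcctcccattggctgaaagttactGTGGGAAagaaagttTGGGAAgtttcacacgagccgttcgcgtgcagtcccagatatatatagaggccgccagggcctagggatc
HES4, chr1:1000098-1000347, minus strand: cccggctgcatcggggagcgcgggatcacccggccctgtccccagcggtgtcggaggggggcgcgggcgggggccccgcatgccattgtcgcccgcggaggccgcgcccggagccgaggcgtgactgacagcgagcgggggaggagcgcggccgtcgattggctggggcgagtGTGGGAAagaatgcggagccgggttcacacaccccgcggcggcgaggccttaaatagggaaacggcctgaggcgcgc
JAG1, chr20:10674000-10674249, minus strand: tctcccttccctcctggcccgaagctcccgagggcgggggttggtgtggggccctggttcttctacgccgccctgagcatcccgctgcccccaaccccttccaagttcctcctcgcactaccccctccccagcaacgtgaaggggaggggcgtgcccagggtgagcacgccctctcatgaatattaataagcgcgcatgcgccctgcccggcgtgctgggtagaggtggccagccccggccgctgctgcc
In the *HES1* promoter, GTGGGAA began 85 bases before the start and another TGGGAA began 70 bases before it. In the *HES4* promoter, GTGGGAA began 77 bases before the start. Neither motif was found in the *JAG1* window. Of the 10 Notch genes, 7 had a promoter in the RefSeq table (not *DLL1*, *DLL3*, or *HEY1*), and *HES1* was the only 1 of these with a match. Of 9 genes listed as other targets (*HES2* to *HES7*, *HEY2*, *HEYL*, and *NRARP*), 4 held GTGGGAA and 5 held TGGGAA. Among all 35116 promoters of this length, 5.43% held GTGGGAA and 20.8% held TGGGAA. A match is a description of the letters and was not tested as a binding site.

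Library totals lay between 49849257 and 75087193 counts and were lower in both treated libraries, while more genes were detected there (17114 and 17815, against 15464 and 16079 in untreated cells). Levels are given as CPM (counts scaled to a common library size) after TMM normalization, and differences as log2 fold changes of treated against untreated cells with their standard errors (SE). Tests are the quasi-likelihood test of edgeR with Benjamini-Hochberg adjustment over all 18066 genes. Across all genes, 35.2% passed an adjusted *p* of 0.05 in either direction, 16.1% being higher and 19.1% lower after treatment, and the median log2 fold change was 0.24. As the identity of the lines, *SMARCB1* was at 15.9 to 21.3 CPM in all 4 libraries, so its mRNA was not absent, and the log2 fold changes of *SMARCA4* and *MYC* were -0.56 and -0.59 (adjusted *p* = 0.0498 and 0.0289).

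Of the 4 receptors, *NOTCH1* was downregulated after treatment and *NOTCH3* was the most abundant per length in each library. *NOTCH1*, on chromosome 9 (hg38, 136494433 to 136546048), went from 219.9 CPM without to 132 CPM with treatment in BT-16, and from 191 to 121 CPM in CHLA-266. Both treated libraries lay below both untreated libraries. Its log2 fold change was -0.70 (SE 0.16, adjusted *p* = 0.0122), which is 1.62-fold lower. The ratio was alike in the lines, at -0.73 in BT-16 (95% counting interval -0.77 to -0.69) and -0.66 in CHLA-266 (-0.70 to -0.62) on the log2 scale. The call was lost without the untreated BT-16 library (log2 fold change -0.59, adjusted *p* = 0.0727), and with library totals (-0.47, 0.0511) or upper-quartile normalization (-0.35, 0.113) in edgeR.

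*NOTCH3*, on chromosome 19 (15159038 to 15200995), was at 445 CPM in untreated BT-16 and 448 CPM in treated BT-16, and went from 318 to 505 CPM in CHLA-266. The BT-16 libraries were almost level, and the whole difference stood in CHLA-266. Its log2 fold change of 0.32 (SE 0.20) did not pass the edgeR test (adjusted *p* = 0.234), nor with the cell line as a block (0.0881). It passed with the block in DESeq2 (0.41, adjusted *p* = 0.0428) and in edgeR with library totals (0.55, 0.0484) or upper-quartile normalization (0.67, 0.0234). The within-line log2 ratio was 0.01 in BT-16 (-0.02 to 0.03) and 0.67 in CHLA-266 (0.64 to 0.69).

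*NOTCH2*, on chromosome 1 (119911553 to 120100779), went from 234 to 203 CPM in BT-16 with treatment and from 184 to 262 CPM in CHLA-266. The lines went opposite ways, with log2 ratios of -0.21 (-0.25 to -0.18) in BT-16 and 0.51 (0.47 to 0.54) in CHLA-266, although the BT-16 value became 0.08 with library totals. Such opposite signs were seen in 1 of the 10 Notch genes and in 15.4% of all genes tested. Its log2 fold change over both lines was 0.15 (SE 0.20, edgeR adjusted *p* = 0.561). *NOTCH2* has near-identical partial copies, of which *NOTCH2NLC* had 411 to 726 counts, beside 11352 to 16170 counts of *NOTCH2*. How reads shared with these copies were counted is not stated, so the level of *NOTCH2* is uncertain to that extent.

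*NOTCH4*, known mainly from endothelial cells and located on chromosome 6 (32194843 to 32224067), was the lowest receptor per length, going from 6.65 to 4.38 CPM with treatment in BT-16 and from 6.48 to 2.58 CPM in CHLA-266. Both treated libraries were below both untreated ones. A log2 fold change of -0.92 (SE 0.39) missed the threshold in edgeR (adjusted *p* = 0.0960), and passed it with the cell line as a block (-0.96, SE 0.36, adjusted *p* = 0.0341) and without the treated BT-16 library (-1.35, adjusted *p* = 0.0347). Its exons overlap those of *GPSM3* on the same strand, which had 12 to 34 counts against 134 to 459 of *NOTCH4*. Of 9 endothelial markers, 4 passed as higher, beside 16.1% of all genes, and none as lower after treatment. Their summed level was 1.25 to 1.38 CPM in untreated and 9.83 to 14.1 CPM in treated cells, and *EMCN* was at 0 in all libraries but treated CHLA-266. Only 1 of the 9 in treated BT-16 and 0 in treated CHLA-266 lay above the 95th percentile of olfactory receptor genes in counts per kilobase, against 2 in each untreated library. Their part in the *NOTCH4* values was not tested. Each library is a culture of 1 cell line, and in its bulk RNA, fewer cells with *NOTCH4* mRNA and less of it per cell cannot be told apart.

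**Figure D1:**
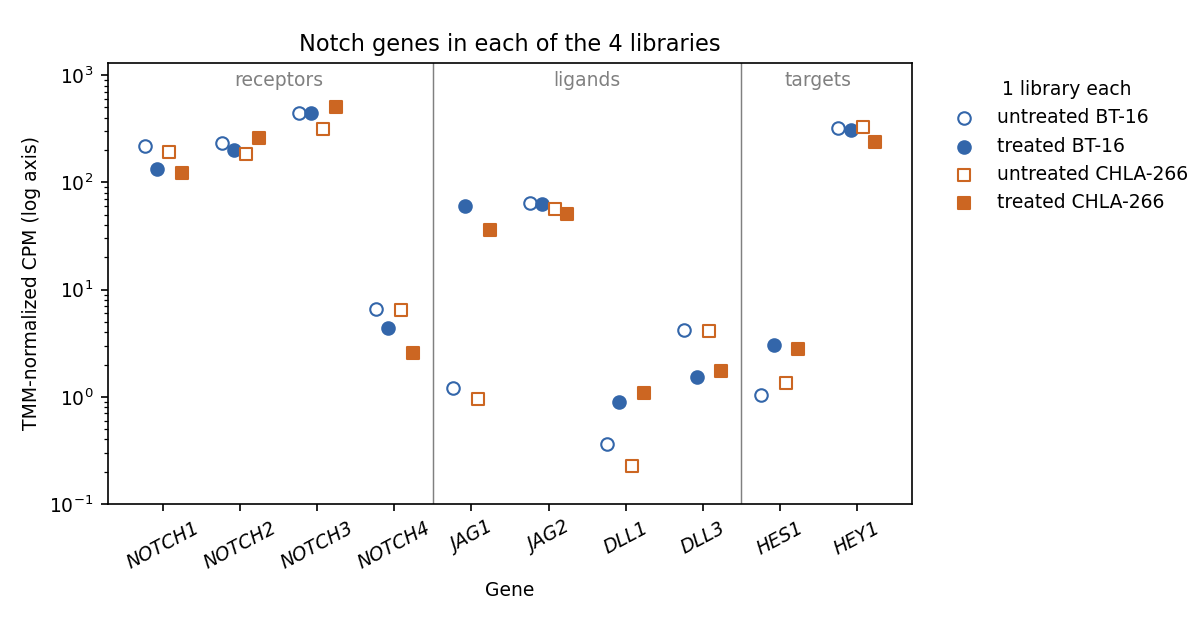
TMM-normalized CPM (log axis) of the 10 Notch genes in each of the 4 libraries, with open symbols for untreated and filled symbols for treated cells, circles for BT-16, and squares for CHLA-266; no error bars are drawn because each symbol is 1 library. The treated libraries of *JAG1* stand at 36.2 and 60.2 CPM above untreated libraries near 1 CPM, while most other genes lie within a narrow range.

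Among the ligands, *JAG1* rose from 0.103 and 0.129 CPM per kilobase in untreated cells to 3.89 and 6.47 in treated cells, where *JAG2* was at 7.98 and 9.88. *JAG1*, which encodes the activating ligand Jagged 1 and lies on chromosome 20 (10637684 to 10673999), was counted 83 times in the untreated BT-16 library and 3478 times in the treated one. In CHLA-266, it had 59 without and 1882 with treatment. At 1.20 and 0.958 CPM, the untreated libraries of both lines were close, and the treated ones reached 60.2 and 36.2 CPM. Over both lines, the log2 fold change was 5.47 (SE 0.33), or 44.4-fold. Within the lines, *JAG1* rose 49.7-fold in BT-16 (log2 ratio 5.64, 5.33 to 5.98) and 37.5-fold in CHLA-266 (5.23, 4.87 to 5.64). Low counts were mostly even, with 20.5 to 34.2% odd values among counts of 1 to 20, so that both reads of a pair may have been counted. With all counts halved, the intervals were 5.19 to 6.10 and 4.69 to 5.79. Leaving out any 1 library gave log2 fold changes of 5.06 to 5.81, and limma on the variance-stabilized values gave 3.56, a scale that compresses low counts. *JAG1* ranked 2 by log2 fold change among the 12620 genes that reached 10 counts in each library, and 1147 among all genes tested. Its high place follows from the choice of the family.

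*JAG2*, on chromosome 14 (105140982 to 105168824), encodes the related ligand Jagged 2. It stood at 64.9 CPM in untreated and 63.2 CPM in treated BT-16, and went from 56.8 to 51.0 CPM in CHLA-266. The conditions overlapped, and the order of the libraries followed the cell lines. Its log2 fold change was -0.09 (SE 0.18, edgeR adjusted *p* = 0.693), and its sign turned with library totals (0.14), upper-quartile normalization (0.26), or where genes with fewer than 10 counts in any library were left out (0.09).

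*DLL3*, on chromosome 19 (39498895 to 39508481), is known as a surface marker of neuroendocrine tumors. With treatment it went from 4.23 to 1.54 CPM in BT-16 and from 4.09 to 1.73 CPM in CHLA-266. Both treated libraries lay below both untreated libraries, and the levels within each condition were close. *DLL3* had a log2 fold change of -1.35 (SE 0.44, edgeR adjusted *p* = 0.0417), which is 2.54-fold lower, with within-line log2 ratios of -1.45 (-1.82 to -1.11) and -1.24 (-1.60 to -0.89). The call was lost when any 1 of the 4 libraries was left out (adjusted *p* = 0.0939 to 0.113, log2 fold change -1.42 to -1.26), and it held in 4 of the 9 other settings (0.0214 to 0.114).

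*DLL1*, a Delta-like ligand that activates receptors, lies on chromosome 6 (170282206 to 170306565) and had 25 counts in untreated BT-16, 52 in treated BT-16, 14 in untreated CHLA-266, and 57 in treated CHLA-266. Both treated libraries were above both untreated libraries in CPM. A log2 fold change of 1.75 (SE 0.87) did not pass (edgeR adjusted *p* = 0.144), and passed only where each library had to reach 10 counts (1.93, adjusted *p* = 0.0351). *DLL1* overlaps exons of *FAM120B* on the opposite strand, which had 3524 to 5308 counts. The paper names a stranded library kit, but whether the counting used the strand is not stated. The gene of origin of reads in the overlapping exons is therefore uncertain.

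The targets *HES1* and *HEY1* both encode transcriptional repressors, and per length *HES1* was far lower (0.50 to 1.47 CPM per kilobase) than *HEY1* (43.1 to 60.0). *HES1*, on chromosome 3 (194136148 to 194138732), went from 1.03 to 3.03 CPM with treatment in BT-16 and from 1.33 to 2.77 CPM in CHLA-266. Both treated libraries lay above both untreated libraries. Its log2 fold change was 1.30 (SE 0.51, edgeR adjusted *p* = 0.0777), with within-line log2 ratios of 1.55 (1.15 to 1.98) and 1.05 (0.66 to 1.47). *HES1* passed in 4 of the 9 other settings. These were DESeq2 (1.36, adjusted *p* = 0.0411), limma (0.56 on variance-stabilized values, 0.0304), upper-quartile normalization (1.64, 0.0393), and at least 10 counts in each library (1.48, 0.0360). It did not pass when the libraries were paired by line, either in edgeR (1.30, adjusted *p* = 0.0797) or in DESeq2 (1.37, 0.127). Nor did it pass with library totals in edgeR (1.52, 0.0543). With any 1 library left out, its log2 fold change was 1.12 to 1.49.

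*HEY1*, on chromosome 8 (79762371 to 79767857), went from 324 to 310 CPM with treatment in BT-16 and from 329 to 237 CPM in CHLA-266. The treated libraries lay below the untreated ones, by little in BT-16 (log2 ratio -0.06, -0.09 to -0.03) and more in CHLA-266 (-0.48, -0.51 to -0.44). Its log2 fold change of -0.26 (SE 0.18) did not pass (edgeR adjusted *p* = 0.288), and its sign turned with upper-quartile normalization (0.10).

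**Figure D2:**
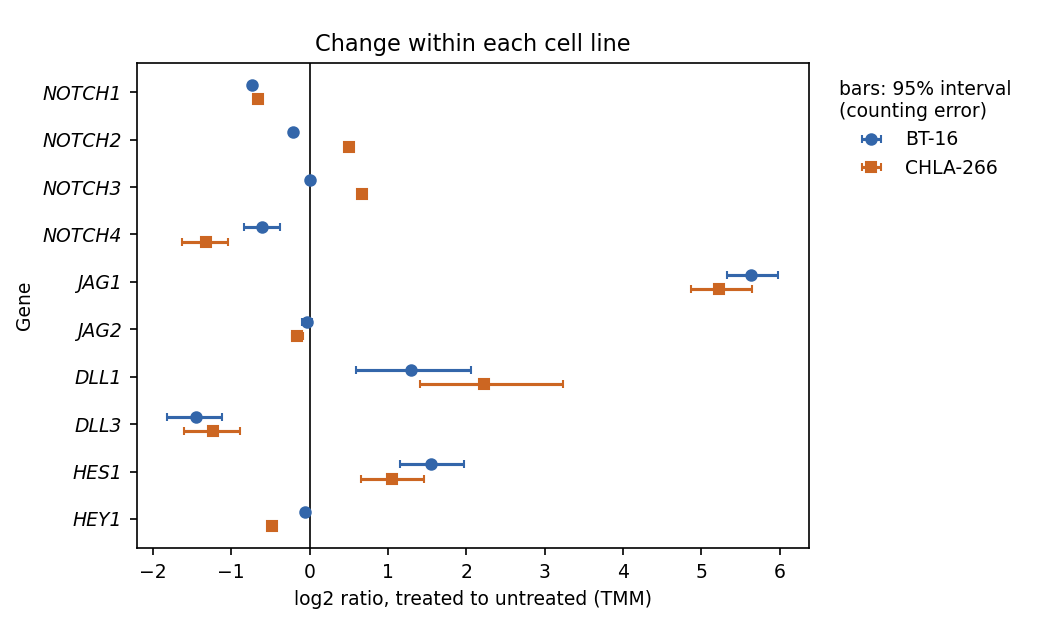
Log2 ratio (treated over untreated) of each Notch gene in BT-16 and in CHLA-266, with bars for the exact 95% interval of counting error, which does not include the spread between cultures. *JAG1* stands apart at 5.64 and 5.23, and *NOTCH2* is the only gene with ratios of opposite sign, at -0.21 and 0.51.

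Counted as a family, *JAG1* was higher and *NOTCH1* and *DLL3* were lower at the threshold, which is 30.0% of the 10 genes beside 35.2% of all genes tested. Since *JAG1* chose the family in this contrast, nothing is read from that count. Without the untreated BT-16 library, 1 gene was higher and 0 were lower. Leaving out *JAG1*, 0 of 9 genes were higher and 2 were lower, with a median log2 fold change of -0.09 against 0.24 over all genes. With library totals, 2 of the 10 were higher and 0 lower, and with upper-quartile normalization, 3 were higher and 0 lower. These scalings moved the median of all genes to 0.46 and 0.59, so the direction of small changes depends on the scaling. In CPM, both treated libraries lay above both untreated libraries for *NOTCH3*, *JAG1*, *DLL1*, and *HES1*, which is 4 of 10 beside 43.0% of all genes. They lay below for *NOTCH1*, *NOTCH4*, *DLL3*, and *HEY1*, again 4 of 10, beside 32.3% of all genes.

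Per kilobase of exon, the share of *NOTCH1* among the receptors was lower and that of *NOTCH3* higher in the treated libraries of both lines. Among the ligands, the larger share of *JAG1* follows from the rise that chose the family. These shares compare genes within 1 library and do not depend on the scaling between libraries. *NOTCH3* went from 59.5% to 67.3% of the 4 receptors in BT-16 and from 55.6% to 67.7% in CHLA-266. *NOTCH1* went from 22.1% to 14.9% in BT-16 and from 25.1% to 12.2% in CHLA-266. The share of *NOTCH2* was 17.1 to 19.7% in all libraries, and that of *NOTCH4* did not exceed 1.09%.

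*JAG1* went from 1.08% to 37.7% of the 4 ligands in BT-16 and from 0.972% to 30.4% in CHLA-266. *JAG2* remained the most abundant of these 4 ligands in each library. Its share of them went from 84.6% to 57.5% in BT-16 and from 83.7% to 62.2% in CHLA-266. Without *JAG1* in the sum, the share of *JAG2* went from 85.6% to 92.3% in BT-16 and from 84.5% to 89.4% in CHLA-266, and that of *DLL3* from 13.6% to 5.5% and from 14.9% to 7.41%. The sum of the 4 ligands per length went from 12.0 to 17.2 CPM per kilobase in BT-16 and from 10.6 to 12.8 CPM per kilobase in CHLA-266. Without *JAG1*, it went from 11.9 to 10.7 and from 10.5 to 8.92 CPM per kilobase, so this sum was higher only with *JAG1* in it. *DLL4*, a ligand outside these 4, went from 2.71 to 2.73 CPM per kilobase in BT-16 and from 1.07 to 4.30 in CHLA-266. The sum of the receptors went from 79.5 to 70.7 in BT-16 and from 60.7 to 79.2 CPM per kilobase in CHLA-266, so the lines did not move alike. With 2 libraries per condition, an exact permutation test of such a share cannot give a two-sided *p* below 0.333, and none was run.

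**Figure D3:**
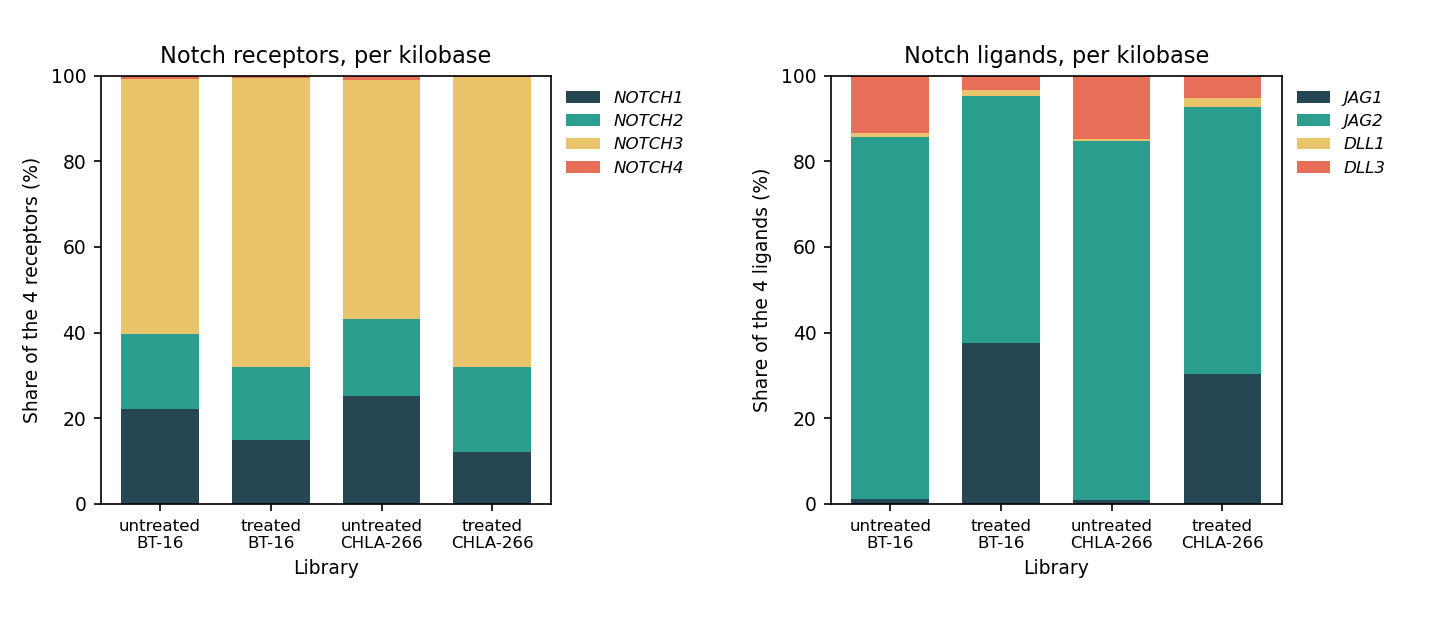
Share of each gene among the 4 receptors (left) and the 4 ligands (right) in each library, in percent of the counts per kilobase of exon, drawn as stacked bars without error bars because each bar is 1 library. *JAG1* takes 37.7% and 30.4% of the ligands in the treated libraries and about 1% in the untreated ones.

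The cell lines were compared with treatment in the model, a contrast that played no part in the choice of the genes. None of the 10 Notch genes differed between CHLA-266 and BT-16 in edgeR, with 0 higher and 0 lower, beside 2.3% of all genes tested (0.836% higher and 1.46% lower in CHLA-266). At an unadjusted *p* under 0.05, only *JAG1* differed (log2 difference of CHLA-266 minus BT-16 -0.57, SE 0.21, unadjusted *p* = 0.0114, adjusted *p* = 0.233 in edgeR), DESeq2 gave the same counts of 0 and 1, and limma gave 0 and 0. *JAG1* was lower in CHLA-266 in both conditions. Without the treated CHLA-266 library it passed as lower in CHLA-266 (-5.00, edgeR adjusted *p* = 8.5e-05), but that line then had its untreated library alone. The differences of the other genes ran from -0.39 (*NOTCH4*, SE 0.36) to 0.12 (*HES1*, SE 0.59). With *JAG1* included, 7 of the 10 were lower in CHLA-266 by sign, beside 9988 of the 18066 genes tested, and nothing is read from that count. Low genes had wide errors here, up to an SE of 1.17 for *DLL1*. Whether a line responds more than the other cannot be tested with 1 library per line and condition.

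Further genes of the pathway were taken from a list of 71 written from general knowledge with the results of *JAG1* known. Of these, 9 were higher, 20 were lower, and 42 did not pass in edgeR (40.8% passed, beside 35.2% of all genes), with a median log2 fold change of -0.05. With upper-quartile normalization, 16 were higher and 10 lower, and with library totals 12 were higher and 14 lower, so the balance of directions rests on the scaling.

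Of the 6 other ligands, only *DLK1*, a non-canonical ligand of progenitor cells, passed as higher (log2 fold change 4.33, SE 1.13, edgeR adjusted *p* = 0.0185), with 2 counts in untreated BT-16, 36 in treated BT-16, 6 in untreated CHLA-266, and 103 in treated CHLA-266. In both treated libraries *DLK1* lay below the 95th percentile of olfactory receptor genes, taken as a low-count reference (6.86 beside 26.3 counts per kilobase in BT-16, and 19.6 beside 21.2 in CHLA-266). That call was lost without the treated CHLA-266 library (3.28, adjusted *p* = 0.276) and without the untreated BT-16 library (3.71, 0.0540). *DNER*, the ligand with the most counts per kilobase, went opposite ways in the lines. Of 8 enzymes that add sugars to the receptors, 6 passed as lower and none as higher (75.0% passed, beside 19.1% of all genes lower). The others, *RFNG* and *MFNG*, had both treated libraries above both untreated ones. Among them, *LFNG*, a Fringe enzyme that changes which ligands a receptor answers to, went from 38.3 to 15.3 CPM in BT-16 and from 34.7 to 9.64 CPM in CHLA-266 (-1.55, SE 0.25, adjusted *p* = 0.00245). *POFUT1*, which places the fucose that Fringe extends, fell by 0.87 on the log2 scale (adjusted *p* = 0.00387), and *XXYLT1*, a xylosyltransferase, fell by 1.21 (0.000990).

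Of the 9 cleavage genes, 2 were higher and 2 lower (44.4% passed, beside 35.2% of all genes). *FURIN*, the protease that cuts the receptor on its way to the surface, went from 152 to 62.2 CPM in BT-16 and from 119 to 32.0 CPM in CHLA-266 (log2 fold change -1.53, SE 0.29, edgeR adjusted *p* = 0.00523). The γ-secretase genes *PSEN2* (0.95, 0.0306) and *APH1A* (-0.67, 0.0395) passed in opposite directions, and both calls were lost without any 1 library other than treated BT-16 (adjusted *p* = 0.0852 to 0.130 for *PSEN2* and 0.0650 to 0.178 for *APH1A*). In the 9 other settings that kept all libraries, *PSEN2* passed in all 9 and *APH1A* in only 3. Of the 7 genes that ubiquitinate or internalize the ligand, the ligases *NEURL1B* and *MIB2* moved apart. *NEURL1B* went from 31.8 to 5.41 CPM and from 24.9 to 3.10 CPM (-2.74, SE 0.32, adjusted *p* = 0.000474), and *MIB2* from 20.9 to 38.3 CPM and from 19.2 to 42.0 CPM (1.00, SE 0.18, 0.00425). *MIB1*, the most abundant of them per length, had a log2 fold change of -0.05 (SE 0.17, 0.814), and *DNM2*, encoding dynamin 2, was lower (-0.74, 0.00832).

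In the nucleus, 3 of 8 genes of the activator complex were lower and none higher (37.5% passed, near the 35.2% of all genes), led by *MAML1*, a Mastermind coactivator (log2 fold change -0.72, SE 0.16, edgeR adjusted *p* = 0.00886). The calls of *MAML2* (-0.61, 0.0482) and *SNW1* (-0.51, 0.0352) were lost without most or all single libraries, *MAML2* passing only without treated BT-16 (otherwise 0.0805 to 0.229) and *SNW1* in no case (0.0664 to 0.177). With upper-quartile normalization, none of the 3 passed (*MAML1* 0.0814, *MAML2* 0.348, *SNW1* 0.416), and *MAML2* and *SNW1* also failed with library totals, DESeq2 size factors, at least 10 counts, and limma. Of 12 corepressor genes, 4 were lower and 1 was higher (41.7% passed, beside 35.2% of all genes). Among the lower were *HDAC2* (-0.99, SE 0.16, 0.00216) and *CTBP1* (-0.79, 0.00712). Only *TLE4*, a Groucho family corepressor, was higher, from 13 and 8 counts to 228 and 126 (4.30, SE 0.67, 0.00196). Treated *TLE4* was above the olfactory reference in BT-16 (27.5 beside 26.3 counts per kilobase) and not in CHLA-266 (15.2 beside 21.2).

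Receptor turnover genes and inhibitors had 4 of 12 higher and none lower (33.3% passed, near the 35.2% of all genes). *NUMBL*, a Numb family inhibitor, went from 65.3 to 116 CPM in BT-16 and from 47.8 to 118 CPM in CHLA-266 (log2 fold change 1.05, SE 0.19, edgeR adjusted *p* = 0.00375). *DTX4*, a Deltex ligase, rose by 2.72 (SE 0.54, 0.00626), and *FBXW7*, which marks the intracellular domain for degradation, by 0.58 (SE 0.15, 0.0190). The *FBXW7* call was lost without the untreated BT-16 (0.105) or the untreated CHLA-266 library (0.0623). Of the 9 genes listed as other targets, 3 were lower and none higher (33.3% passed), namely *HES6*, *HES4*, and *NRARP*. Whether Notch drives any of the 9 in these cells was not tested. *HES6*, known as an antagonist of HES1, went from 16.3 to 2.84 CPM in BT-16 and from 13.5 to 2.58 CPM in CHLA-266 (-2.46, SE 0.30, 0.000605). *HES4*, whose promoter held GTGGGAA, went from 21.5 to 8.11 CPM and from 16.1 to 6.10 CPM (-1.40, SE 0.28, 0.00614). *NRARP*, a feedback inhibitor of Notch, had log2 ratios of -1.85 in BT-16 and -4.37 in CHLA-266 (-2.62, SE 0.65, 0.0156). Set beside these, *HES1* had a log2 fold change of 1.30 and *HEY1* of -0.26, and neither passed.

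**Figure D4:**
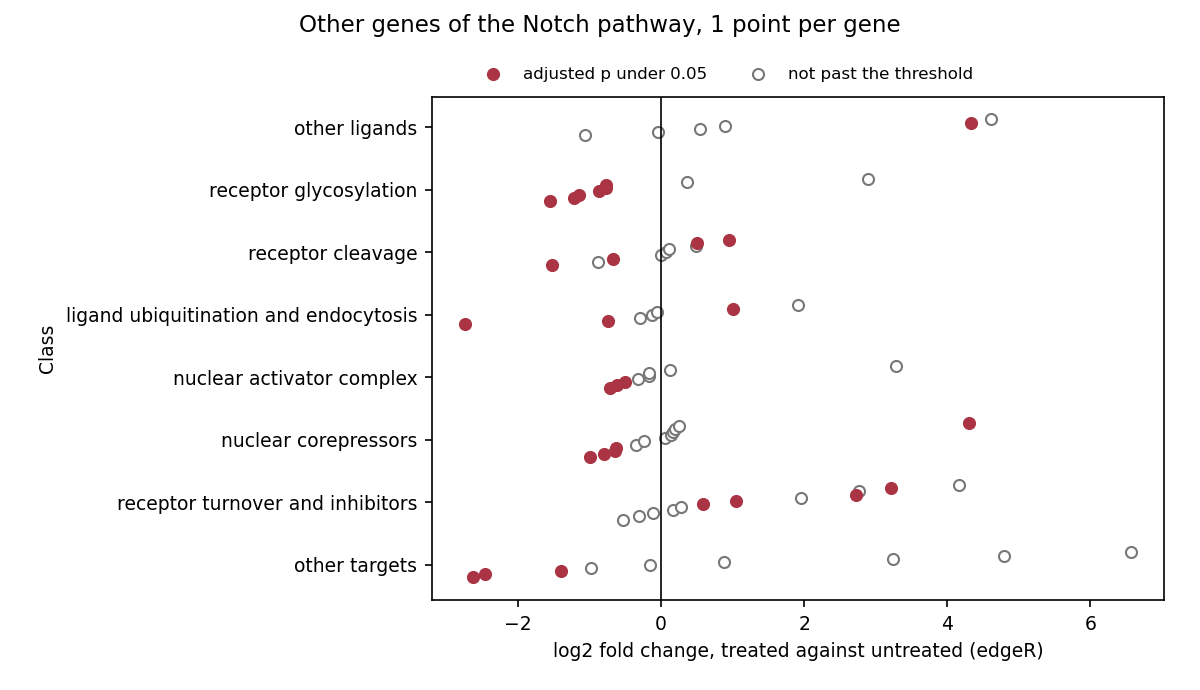
Log2 fold change of treated against untreated cells for the 71 other pathway genes, 1 point per gene and 1 band per class, with filled points for an edgeR adjusted *p* under 0.05; the values of *DTX3L*, *HES3*, and *HES5*, at no more than 3 counts in each untreated library, depend on the fit. The 6 glycosylation genes that passed lie below 0, and the other 2 lie above 0.

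The low Notch genes were set beside 380 olfactory receptor genes, which these cells have no known use for. The 95th percentile of the olfactory receptors went from 4.11 to 26.3 counts per kilobase in BT-16 and from 3.81 to 21.2 in CHLA-266, so low counts of such genes were more frequent after treatment. In the treated libraries, 8 of the 10 Notch genes lay above that percentile. *NOTCH4* (26.0 and 13.7 counts per kilobase) and *DLL1* (13.6 and 14.9) did not, and *DLL1* was also below it in untreated CHLA-266 cells (3.67). *DLL3* was not far above, at 34.0 and 34.4, followed by *HES1* at 85.0 and 69.9. *JAG1* was at 374 and 202 counts per kilobase in treated and at 8.93 and 6.35 in untreated cells, above the percentile in each library. The part of such low-level signal in the values of *DLL1*, *NOTCH4*, and *HES1* was not tested.

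Of 6 epithelial markers, 2 passed as higher and none as lower (33.3% passed, beside 35.2% of all genes). Their summed level was 180 to 384 CPM in untreated and 382 to 943 CPM in treated cells, mostly from *KRT8*, and none was at 0. Of 8 macrophage markers, 1 was higher and none lower (12.5% passed). Their sum was 3.66 to 6.48 CPM in untreated and 5.45 to 8.96 CPM in treated cells, with *CD68* at 0 in both treated libraries. Fibroblast and pericyte markers summed to 10.9 to 15.3 and 11.8 to 22.2 CPM (2 of 7 higher, 1 lower, 42.9% passed). Neuronal markers summed to 23.8 to 26.9 and 35.3 to 36.5 CPM (2 of 5 higher, none lower, 40.0% passed). The part of other cell states or types in the rise of *JAG1* was not tested.

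The 5 genes whose pattern over the 4 libraries was closest to that of *JAG1* were *SHCBP1L*, *CCN3*, *MUCL1*, *INHBA*, and *AGBL1*. Likeness was the Euclidean distance of log2 CPM, centered on its mean over the 4 libraries, among 12161 genes with a mean of at least 1 CPM. The distances ran from 0.308 (*SHCBP1L*) to 0.481 (*AGBL1*). *CCN3*, which encodes a secreted matricellular protein, had 8 counts in untreated BT-16, 413 in treated BT-16, 6 in untreated CHLA-266, and 165 in treated CHLA-266. *INHBA*, which encodes a subunit of activin A, went from 4 to 160 and from 2 to 116 counts. All 5 were lower than *JAG1* per length in every library, with at most 8 counts in untreated cells, so their distances rest on few reads. At no more than 0.116 CPM in untreated cells, they reached the mean of 1 CPM through the treated libraries. Per length, treated *INHBA* and *AGBL1* were below *NOTCH4* in BT-16 and *TLE4* in CHLA-266, and thus below the olfactory reference in both lines. *SHCBP1L*, *CCN3*, and *MUCL1* were above it.

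**Figure D5:**
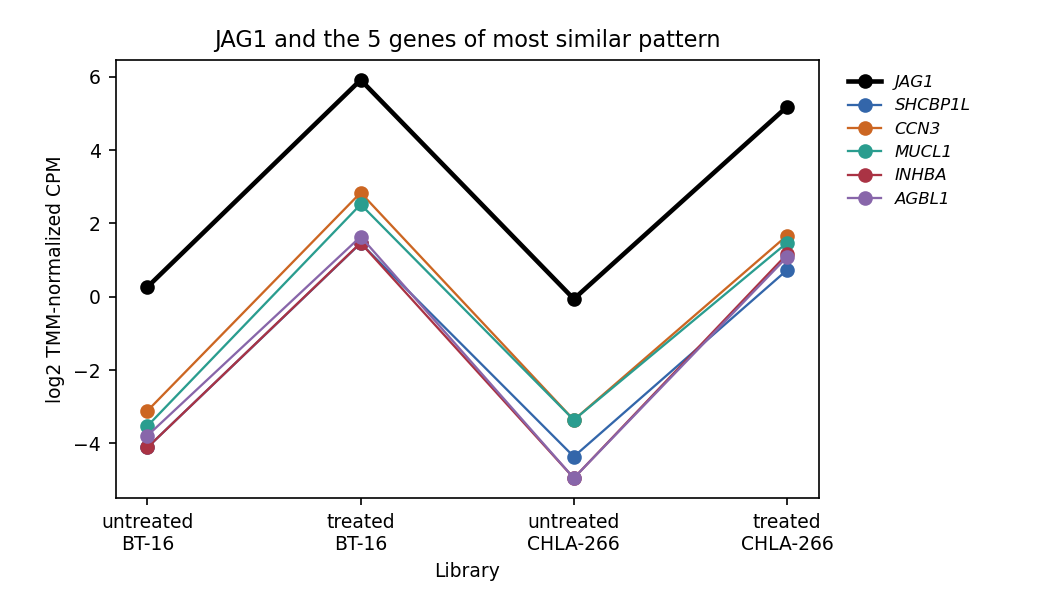
Log2 CPM (not centered) of *JAG1* and of the 5 genes closest to it over the 4 libraries, 1 line per gene, without error bars because each point is 1 library. All 6 lines are low in the untreated and high in the treated libraries of both cell lines, since likeness to *JAG1* chose them.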

How the data were processed

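RNA of untreated and treated BT-16 and CHLA-266 cells was sequenced with 1 library per line and condition, and groups follow the sample labels. According to the methods and processing notes, the authors demultiplexed with bcl2fastq 2.20, trimmed reads with Skewer, aligned them to hg38 with STAR, counted them per gene, converted identifiers to symbols, and removed genes on the sex chromosomes. The authors deposited estimated counts without normalization, rounded here where not whole (5 values of 2 genes), and log2 values from the variance-stabilizing transformation (VST) of DESeq2. How read pairs and strands were counted is not stated in the sources used here. No column was left out.

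Genes with a total of 0 (383 of 18449) were dropped. Treated and untreated libraries were compared in R 4.3.3 with edgeR 4.0.16 (quasi-likelihood test, TMM, Benjamini-Hochberg) without a cell line term, and the lines with treatment as a term. TMM factors were 0.919 to 1.12 and the common dispersion 0.140 (0.0712 with a block for the cell line). Libraries are paired by their cell line, whose deviations from the condition means correlated at 0.256 over 12620 genes (genes are not independent). Libraries of 1 condition differed beyond sampling noise (chi-square per degree of freedom 96.1 and 82.6). Nothing says that further cultures were sampled, so *p* values measure the spread between 2 lines. The tests were tested on simulated counts, at a dispersion near that of the fit with the block. That is below the 0.140 of the main fit, so the simulation does not cover the main test at its own spread.

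Within-line ratios used 0.5 added counts and exact Clopper-Pearson 95% intervals, which cover counting error only. Exon lengths and positions are from GENCODE 44 on hg38, and promoters from RefSeq. Alternatives were the block, DESeq2 1.42.0 with and without it, 3 other scalings, 2 filters, limma 3.58.1 on the VST values, a log2 fold change of at least 1, and each library left out. The Notch genes and all lists were chosen with earlier results of these data known. Named are the 10 Notch genes, up to 3 genes of smallest adjusted *p* that passed and moved alike in both lines and the most abundant gene per pathway class, the 5 genes closest to *JAG1*, and *SMARCB1*, *SMARCA4*, and *MYC*. The result of 1 gene that this rule names is not reported here.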

Additional observations from a re-analysis of the deposited data

Results flagged for a closer look

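For 2 of the named genes, the treated library was higher than the untreated one in one cell line and lower in the other. Among the 10 Notch genes, this was the case for *NOTCH2*, with log2 ratios of -0.21 in BT-16 and 0.51 in CHLA-266. In the wider pathway, *DNER*, a non-canonical ligand, had log2 ratios of -0.47 in BT-16 and 0.47 in CHLA-266, going from 472 to 340 CPM with treatment in BT-16 and from 282 to 390 CPM in CHLA-266. The difference between the lines was not tested, because each line has 1 library per condition. Of all genes tested, 15.4% had ratios of opposite sign in the lines, and of the 71 other pathway genes, 10 did.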

How the results depend on the processing

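The change of *JAG1* after treatment kept its direction in every setting run. All settings refit the same libraries in which that rise chose the family, so nothing is read from this. The number of Notch genes higher after treatment (1, *JAG1* included) was 2 in DESeq2 with and without the block, with library totals, and in limma on VST values, and 3 with at least 10 counts in every library and with upper-quartile normalization. It was 1 to 1 with each library left out. The number lower (2) was 1 with DESeq2 size factors, in DESeq2 with the block, with at least 10 counts, and with a log2 fold change of at least 1, 0 with library totals and upper-quartile normalization, and 0 to 2 with each library left out (0 without untreated BT-16, and 1 without 1 or the other CHLA-266 library). Paired by cell line (the block in edgeR), 1 was higher and 3 were lower. Among the genes chosen by the naming rule, only the call of *NOTCH4* changed. Outside that rule other calls changed too, such as that of *DLL4*, which passed as higher with the block (edgeR adjusted *p* = 0.0120, against 0.131 without it). Of the other pathway genes, 9 were higher and 20 lower, against 12 and 23 with the block, 16 and 10 with upper-quartile normalization, 5 and 8 with a log2 fold change of at least 1, and, with single libraries left out, 6 to 11 higher (6 without untreated BT-16) and 13 to 20 lower (13 without untreated CHLA-266).

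The sign turned for *JAG2* with at least 10 counts (0.095), library totals (0.14), and upper-quartile normalization (0.26), and for *HEY1* with the last (0.10). *DNER* (-0.05) turned to 0.023 in DESeq2 and with its size factors, 0.064 with the block in DESeq2, 0.063 in limma, and 0.14, 0.18, and 0.30 in the 3 settings named for *JAG2*. *MIB1* (-0.05) turned to 0.013 in DESeq2, with its size factors, with the block in DESeq2, and in limma, and to 0.13, 0.17, and 0.29 likewise. Within lines, library totals turned *NOTCH2* (0.078), *JAG2* (0.25), and *HEY1* (0.23) in BT-16 and *JAG2* (0.00999) in CHLA-266. With each library left out, log2 fold changes ran from -0.035 to 0.33 for *NOTCH2*, -0.25 to 0.067 for *JAG2*, -0.37 to 0.37 for *DNER*, and -0.16 to 0.056 for *MIB1*.

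Between lines, *NOTCH2* turned to -0.033 with library totals and *DLL1* to 0.069 without treatment in the model. With a library left out, treatment was not in the model, so line and condition mix. The ranges were -0.54 to 0.24 for *NOTCH1*, -0.23 to 0.26 for *NOTCH2*, -0.48 to 0.18 for *NOTCH3*, -1.10 to 0.25 for *NOTCH4*, -5.00 to 3.96 for *JAG1*, -1.46 to 0.88 for *DLL1*, -0.74 to 0.92 for *DLL3*, -0.60 to 1.01 for *HES1*, and -0.42 to 0.065 for *HEY1*. *JAG1* passed as lower in CHLA-266 without its treated library (-5.00, edgeR adjusted *p* = 8.5e-05), which made 0 to 1 Notch genes lower and 0 to 0 higher. The cause of the other changes was not tested. With 1 library per line and condition, intervals cover counting error only.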
